A study of Mus musculus with 24 samples.

Results

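A set of 10 genes of the cellular response to oxidants and iron were followed in the hippocampal CA1 region of mice after status epilepticus (SE), a prolonged seizure that can initiate epilepsy. They were chosen by name, as the rows of the deposited table whose annotated symbol is Hmox1, Slc7a11, Gpx4, Nqo1, Srxn1, Txnrd1, Gclm, Gclc, Ftl1 or Fth1. All 10 were found among the 18647 genes of the table, and all 10 passed the filter on low counts that 18153 genes passed.

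Adult C57Bl/6N mice of at least 60 days and 20 g had received 1 mg/kg scopolamine methyl nitrate under the skin, and 20 min later either 335 mg/kg pilocarpine (SE) or saline (non-SE controls, Ctr). Diazepam at 4 mg/kg was given 40 min after SE onset, and controls went through the same steps with saline in place of pilocarpine, so scopolamine and diazepam were shared by every group. CA1 was dissected at 5 times after SE (6, 12, 24, 36 or 72 h) and at 3 of them in controls (12, 36 or 72 h), with 3 libraries in each of the 8 groups and 24 in all. SE at 6 and 24 h had no control of its own time and was set against the mean of the 3 control groups, so time of day was not matched there. Nothing in the sources used here ties each library to a separate animal, so p-values measure the spread between these samples. Each value is from whole CA1 tissue, in which fewer cells of a type and less RNA per cell cannot be told apart.

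NRF2, the protein encoded by Nfe2l2, is a transcription factor that is held in the cytoplasm and marked for degradation by KEAP1 until oxidants or electrophiles modify KEAP1. It then enters the nucleus, pairs with a small MAF protein and binds antioxidant response elements near genes for glutathione synthesis, thioredoxin and iron handling. BACH1, a heme-binding repressor, competes for the same elements. Ferritin, a shell of heavy (Fth1) and light (Ftl1) chains, stores iron in a form that cannot readily catalyse oxidant reactions, and heme oxygenase 1 (Hmox1) breaks heme down into biliverdin, carbon monoxide and iron. In brain, these systems are best known from glia, and lipid peroxidation fed by free iron is the hallmark of ferroptosis, which GPX4 counters with glutathione.

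The sequences that carry these elements were read from the GRCm39 genome, the assembly the counts were made on. The antioxidant response element was searched in a strict form, TGACTCAGC, on both strands within 12000 bases upstream of each canonical transcript start. Hmox1 held 4 copies, Gclc held 2, Ftl1 and Fth1 held 1 each, and the other 6 genes held 0. Of 21758 protein-coding genes, 16.44% held at least 1 copy and 0.0506% (11 genes) held 4 or more. The stretches are shown 5′ to 3′ on the strand of their gene, with the element, on either strand, in capitals. They are at chr8:75810565-75810654 (Hmox1 far, 3 copies) and chr8:75816338-75816426 (Hmox1 near), both on the plus strand. The others are at chr7:45110363-45110451 (Ftl1, minus strand), chr19:9955964-9956052 (Fth1, plus strand), and chr9:77657987-77658075 and chr9:77659760-77659848 (Gclc far and near, plus strand). None of these stretches overlaps an exon of its own gene, and those of Ftl1 and the far one of Gclc overlap exons of other, predicted genes.
Hmox1 far: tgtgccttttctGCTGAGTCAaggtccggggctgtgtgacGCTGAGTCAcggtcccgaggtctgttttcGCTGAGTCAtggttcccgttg
Hmox1 near: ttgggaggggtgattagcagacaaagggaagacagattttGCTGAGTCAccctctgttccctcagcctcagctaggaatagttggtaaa
Ftl1: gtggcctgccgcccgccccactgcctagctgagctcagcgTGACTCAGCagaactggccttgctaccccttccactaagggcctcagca
Fth1: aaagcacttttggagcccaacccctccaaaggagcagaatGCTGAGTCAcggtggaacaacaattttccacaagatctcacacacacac
Gclc far: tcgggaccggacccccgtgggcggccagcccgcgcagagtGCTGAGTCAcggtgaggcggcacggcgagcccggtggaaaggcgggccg
Gclc near: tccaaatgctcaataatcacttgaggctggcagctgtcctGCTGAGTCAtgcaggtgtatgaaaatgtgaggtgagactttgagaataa

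A looser form of the element, TGACNNNGC, of which TGACTCAGC is a case, was searched on both strands in the 250 bases upstream only. It was found once each for Txnrd1 and Gclm and for none of the other 8, against 9.7% of all genes. Farther upstream this form was not searched, so a gene without it here is not shown to lack the element. Srxn1 had neither form in the bases searched. Its 250 bases upstream held 2 copies of the AP-1 type motif TGANTCA, which overlaps the core of the antioxidant response element. At least 1 copy was present in 6.18% of genes and at least 2 in 0.26%. The stretch, at chr2:151947322-151947425 on the plus strand, overlaps an exon of the antisense transcript 9230118N01Rik, and its capitals mark TGANTCA.
Srxn1: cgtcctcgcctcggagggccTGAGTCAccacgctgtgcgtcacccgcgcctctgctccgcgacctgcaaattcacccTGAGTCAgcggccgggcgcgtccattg
A match is a description of the sequence and not of binding.

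The ferritin chains also share an iron-responsive element, a hairpin in the 5′ untranslated region through which iron regulatory proteins hold back translation when iron is scarce. It was searched by its stem and its loop letters CAGTGN. Of 21770 canonical protein-coding transcripts, 11 (0.0505%) matched, among them Fth1 at base 93 and Ftl1 at base 84 of the transcript, as well as Alas2 and Slc40a1. The 2 ferritin elements are shown as DNA letters with the loop in capitals.
Fth1 element: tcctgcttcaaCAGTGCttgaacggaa
Ftl1 element: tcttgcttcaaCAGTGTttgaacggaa
This hairpin acts on translation, which counts of mRNA do not measure.

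Levels are given as CPM, that is counts scaled by TMM-normalised library size, with mean ± SD over 3 libraries, and log2 fold changes (log2FC) come from 1 model of all 24 libraries with a factor of unwanted variation. A gene is said to have risen or fallen where edgeR's quasi-likelihood test gave an adjusted p of at most 0.05 and the absolute log2FC was at least 0.66, or at least 1 between SE time points. Library totals ranged from 2663936 to 30133731 counts, and the 3 libraries of Ctr 72 h, with 2663936 to 11680209, all lay under the median of 13521590. Ctr 72 h replicate 2 stood apart: the factor of unwanted variation separated it from the other Ctr 72 h libraries, and it held the highest control level of Hmox1, Gpx4, Nqo1, Srxn1, Txnrd1 and Gclc. It and 5 SE libraries (SE 6 h replicate 3, SE 12 h replicate 1, SE 36 h replicate 3 and SE 72 h replicates 1 and 2) held 331 to 1701 CPM summed over 9 markers of sensory ganglion, which is not CA1 tissue, against 5.93 to 78.0 CPM in the other 18. The counts of the 10 genes called were therefore also computed without these 6 libraries, and the counts over gene lists were not. Neuronal and CA1 pyramidal markers were detected in every library, at 7488 to 18075 and 378 to 1668 summed CPM. The lowest pyramidal level, in SE 72 h replicate 1, came with the highest level of dentate granule markers (241 CPM). Dentate markers summed to 32.3 to 109 CPM in SE 36 h against 19.8 to 29.8 CPM in Ctr 36 h. Blood cell markers summed to 10.7 to 43.0 CPM in SE 72 h against 49.4 to 115 CPM in Ctr 72 h. In the other comparisons with control the dentate and blood sums overlapped. Neuronal sums were lower than in every control from 12 h on, at 7488 to 9726 CPM against 11398 to 18075 CPM. Pyramidal sums were 792 to 972 CPM in SE 36 h against 1567 to 1668 CPM in Ctr 36 h. They were 378 to 805 CPM in SE 72 h against 950 to 1188 CPM in Ctr 72 h, and overlapped controls at 6, 12 and 24 h. Their part in the values of the 10 genes was not tested.

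Hmox1 and Ftl1 rose at all 5 times, Srxn1 and Txnrd1 up to 36 h, Slc7a11 at 6 h and Fth1 at 72 h. At 6 h, 5 of the 10 genes rose and 0 fell (Hmox1, Srxn1, Txnrd1, Slc7a11 and Ftl1), while 22% of all genes tested were called, 15.8% higher and 6.21% lower. At 12 h, 4 rose and 0 fell (25.2% of all genes called, 13.9% higher and 11.4% lower). At 24 h, 4 rose and Nqo1 fell (24.1% called, 14.9% higher and 9.21% lower). At 36 h, the same 4 genes as at 12 h, Hmox1, Srxn1, Txnrd1 and Ftl1, had risen, and Slc7a11 had fallen (21.6% called, 12.7% higher and 8.91% lower). At 72 h, only Hmox1, Ftl1 and Fth1 rose (19.4% called, 15.2% higher and 4.21% lower), and without Ctr 72 h replicate 2 Srxn1 and Txnrd1 joined them (16.8% called). In the same order of time, the groups did not overlap for 5, 5, 6, 8 and 4 of the 10 genes, and for 22.2%, 47.7%, 23.6%, 51.9% and 32.8% of all genes. From 6 to 72 h, the median log2FC of the 10 genes was 0.44, 0.22, 0.40, 0.29 and 0.30, against 0.06, 0.01, 0.04, 0.00 and 0.10 over all genes. Without the 6 libraries high in sensory ganglion markers, 4, 5, 5, 5 and 5 of the 10 were called at these times, and 19.6%, 27.8%, 24.4%, 21.2% and 12.3% of all genes. Comparisons at 6 and 24 h share their controls, and all 5 share 1 fit.

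**Figure D1:**
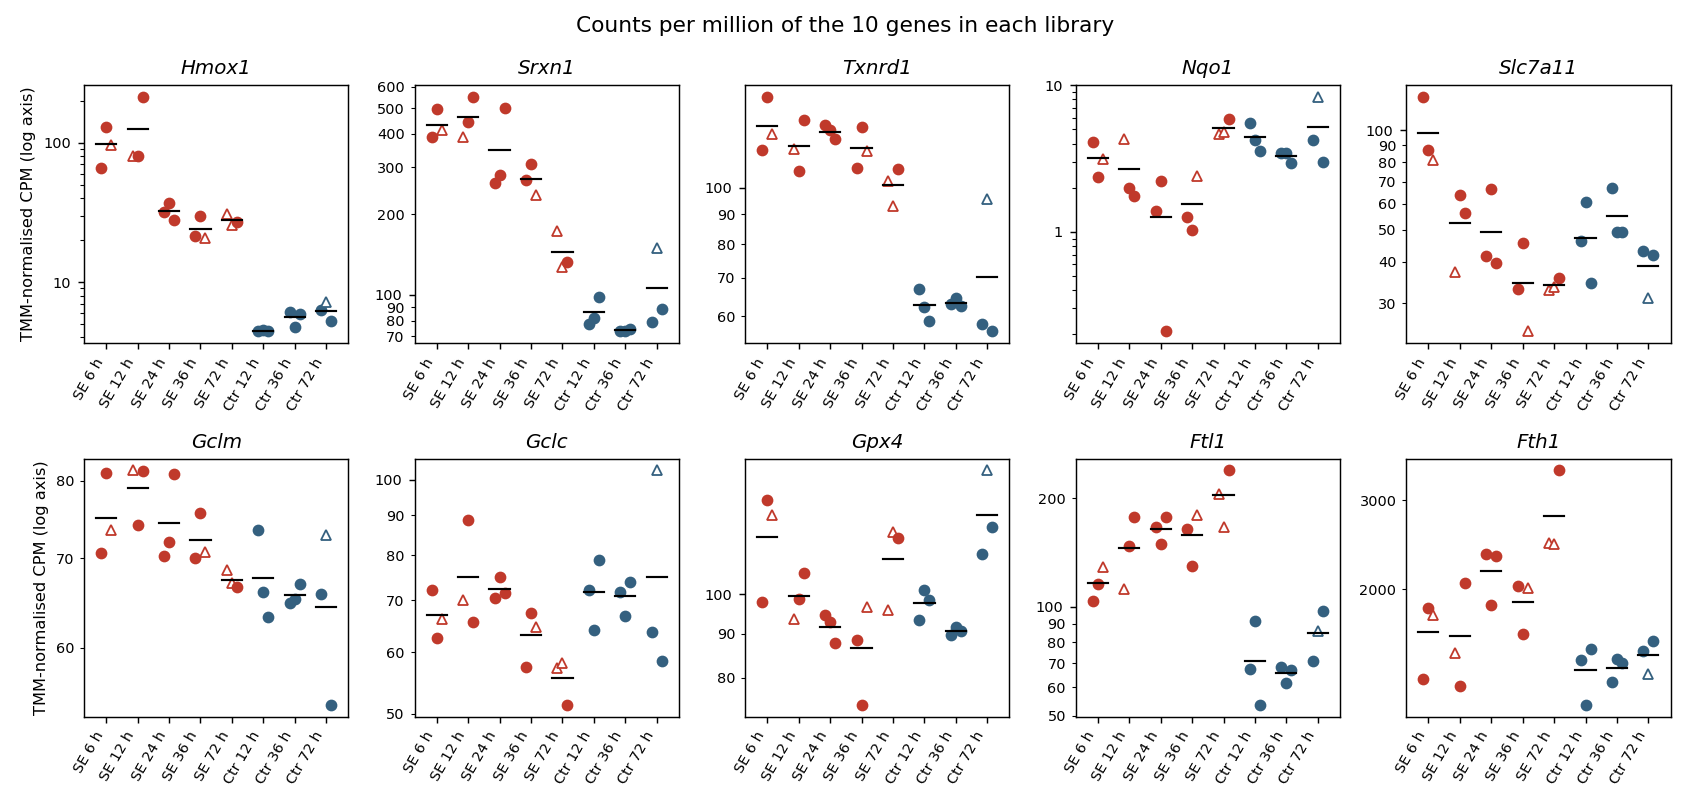
TMM-normalised CPM (log axis, scaled per gene) of the 10 genes in each of the 24 libraries, by group (SE in red, Ctr in blue, bars are group means, n = 3). Open triangles are the 6 libraries with 331 to 1701 summed CPM of sensory ganglion markers. Hmox1 lies between 20.9 and 215 CPM after SE and between 4.45 and 7.16 CPM in controls. The ranges of Gclm, Gclc and Gpx4 over all SE and all control libraries overlap.

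**Figure D2:**
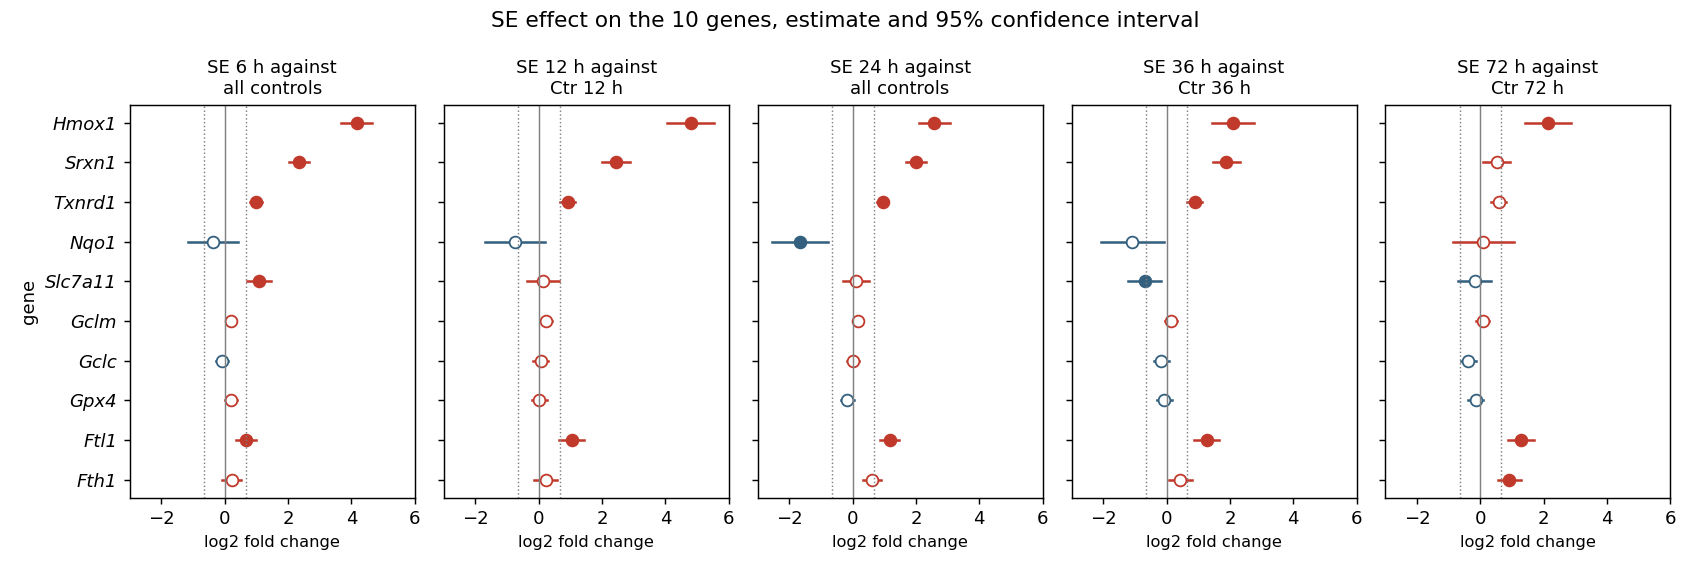
log2 fold change of each gene after SE against control at the 5 time points, with 95% confidence intervals (horizontal lines) and dotted lines at the fold threshold of 0.66. Filled points passed the test. Hmox1 is farthest to the right at every time, and Ftl1 is filled at all 5 times.

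Hmox1, the inducible heme oxygenase, had the largest change of the 10 at every time point. Its levels were 66.1, 130.4 and 95.8 CPM at 6 h and 80.5, 80.4 and 215 CPM at 12 h. They were 32.1, 37.1 and 27.9 CPM at 24 h, 21.5, 29.6 and 20.9 CPM at 36 h, and 30.9, 25.8 and 27.0 CPM at 72 h. All 15 SE libraries lay above all 9 control libraries, which held 4.45 to 7.16 CPM (median 5.25). SE 12 h replicate 3 was the highest library, so that the group mean of 125 ± 77.6 CPM carried a wide spread. The fold change was 17.9 at 6 h (log2FC 4.16 ± 0.23 s.e., 95% interval 3.68 to 4.64, adjusted p = 1.47e-10) and 27.8 at 12 h (95% interval 16.8 to 46.0; log2FC 4.8 ± 0.35, adjusted p = 9.75e-09). It was 5.97 at 24 h (log2FC 2.58 ± 0.24, adjusted p = 3.77e-08), 4.30 at 36 h (2.10 ± 0.32, adjusted p = 4.91e-05) and 4.36 at 72 h (2.13 ± 0.35, adjusted p = 1.21e-04).

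The step down came between 12 and 24 h. Hmox1 fell by 1.94 on the log2 scale (s.e. 0.30, adjusted p = 7.74e-04), with no overlap between the 2 groups, and was the only one of the 10 genes called there (3.18% of all genes called). Fitted on these 2 groups alone, the adjusted p was 0.0748. The differences from 6 to 12 h (log2FC 0.36 ± 0.29), from 24 to 36 h (-0.44 ± 0.30) and from 36 to 72 h (0.22 ± 0.30) did not pass the test. Samples with label numbers in the same range gave like values: the log2 ratio of means was 4.18 at 12 h (1 SE and 1 control library numbered 162 to 169) and 2.19 at 36 h (2 and 3 libraries numbered 109 to 122). At 72 h, no such range held both groups, and the SE 24 h libraries, numbered 97 to 99, shared no range with any control.

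Srxn1 and Txnrd1 serve the peroxiredoxin and thioredoxin system: sulfiredoxin repairs overoxidised peroxiredoxins, and thioredoxin reductase 1 recharges cytosolic thioredoxin. Srxn1 was at 391, 495 and 414 CPM at 6 h and at 390.0, 445 and 552 CPM at 12 h. The later groups held 263, 281 and 500.0 CPM at 24 h, 269.9, 309 and 236 CPM at 36 h, and 173, 127 and 132 CPM at 72 h. Control libraries held 73.2 to 98.1 CPM except Ctr 72 h replicate 2, with 149.9 CPM. Up to 36 h every SE library was therefore above every control, and at 72 h the groups overlapped through this library alone. Srxn1 rose 5.04-fold at 6 h (log2FC 2.33 ± 0.15, adjusted p = 9.82e-10), 5.41-fold at 12 h (2.44 ± 0.21, adjusted p = 1.07e-07), 4.03-fold at 24 h (2.01 ± 0.15, adjusted p = 2.94e-09) and 3.71-fold at 36 h (1.89 ± 0.21, adjusted p = 1.16e-06). At 72 h its log2FC was 0.51 ± 0.21 (adjusted p = 0.0746).

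Txnrd1 followed a flatter course. It was at 116, 144 and 124 CPM at 6 h, 117, 107 and 131 CPM at 12 h, 128, 126 and 121 CPM at 24 h, 108, 127 and 116 CPM at 36 h, and 103, 92.9 and 108 CPM at 72 h. Controls held 56.6 to 67.0 CPM, again except Ctr 72 h replicate 2, with 95.7 CPM. Its fold change was 1.98, 1.88, 1.93 and 1.85 at 6, 12, 24 and 36 h, with log2FC of 0.99 ± 0.08, 0.91 ± 0.11, 0.95 ± 0.08 and 0.89 ± 0.11 and adjusted p-values from 2.74e-08 to 3.90e-06. At 72 h, Txnrd1 had an adjusted p of 6.11e-04 at a log2FC of 0.58 ± 0.11, under the fold threshold. Without Ctr 72 h replicate 2, log2FC at 72 h was 0.80 ± 0.20 for Srxn1 (adjusted p = 0.0064) and 0.82 ± 0.11 for Txnrd1 (adjusted p = 2.25e-05), and both were then called. Without the 6 libraries high in sensory ganglion markers, which left 1 SE 72 h and 2 Ctr 72 h libraries, these were 0.67 and 0.91 (adjusted p = 0.0281 and 6.42e-04), on the assumption that the lone SE library varies like the other groups.

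**Figure D3:**
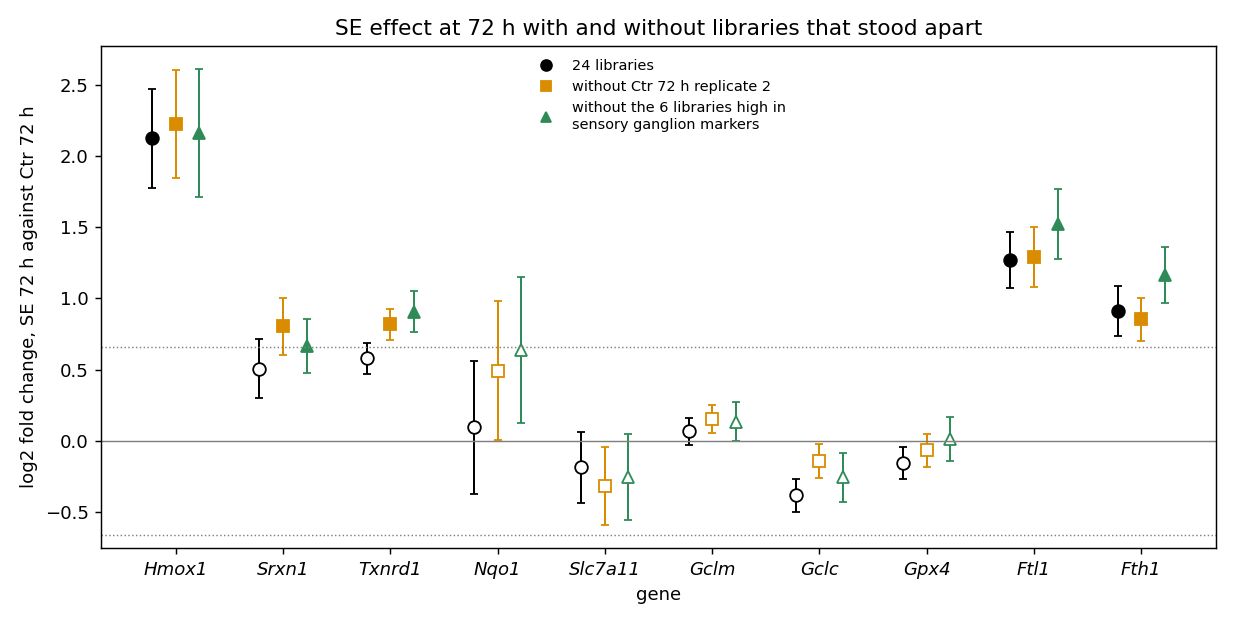
log2 fold change of the 10 genes at 72 h (vertical axis, error bars are 1 standard error) fitted on 24 libraries, without Ctr 72 h replicate 2, and without the 6 libraries high in sensory ganglion markers. Filled symbols passed the test and dotted lines mark 0.66. Hmox1, Ftl1 and Fth1 are filled in all 3 fits, and Srxn1 and Txnrd1 only where libraries were left out.

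Nqo1, a quinone reductase widely used as a reporter of NRF2 activity, went the other way. Its counts were low, with 3 counts in SE 24 h replicate 3 and 8 in the thinnest control library, so its errors were the widest of the 10. It held 4.08, 2.35 and 3.14 CPM at 6 h, 4.27, 1.99 and 1.75 CPM at 12 h, and 1.38, 2.22 and 0.210 CPM at 24 h. The 36 h libraries held 1.26, 1.02 and 2.39 CPM and those of 72 h 4.62, 4.77 and 5.85 CPM, against 2.96 to 8.36 CPM in controls. At 24 h all 3 SE libraries were below all 9 controls, and Nqo1 fell to 0.318 of control (95% interval 0.172 to 0.587; log2FC -1.65 ± 0.42, adjusted p = 0.00394). At 12 and 36 h the log2FC was -0.75 ± 0.45 (adjusted p = 0.203) and -1.08 ± 0.47 (adjusted p = 0.0898), the latter with no overlap between groups, which 51.9% of all genes also showed at that time. Within label numbers 162 to 169 (1 SE and 1 control library) the log2 ratio of means at 12 h was 0.26. Within 109 to 122 (2 and 3 libraries) it was -1.52 at 36 h. The libraries SE 12 h replicate 1 and SE 36 h replicate 3, both high in sensory ganglion markers, held the highest Nqo1 of their groups. Without the 6 such libraries, Nqo1 passed the test at 12 h (log2FC -1.25, adjusted p = 0.0248), 24 h (-1.80, adjusted p = 6.99e-04) and 36 h (-1.52, adjusted p = 0.0154). From 36 to 72 h Nqo1 rose 3.30-fold (log2FC 1.72 ± 0.47, adjusted p = 0.0245; 4.13% of all genes called) and its 3 SE 72 h libraries lay within the range of controls. This call was lost when SE 36 h replicate 1 or 2 or SE 72 h replicate 2 or 3 was left out (highest adjusted p = 0.129).

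Of the 4 genes among the 10 that act in glutathione supply and use, Slc7a11 rose at 6 h and was lower at 36 h, and Gclm, Gclc and Gpx4 were called in no comparison with control. Slc7a11 encodes the light subunit xCT of the exchanger that brings in cystine for glutathione. It was at 126, 87.5 and 81.4 CPM at 6 h, above all 9 controls (31.0 to 66.8 CPM), and rose 2.12-fold (95% interval 1.62 to 2.77; log2FC 1.08 ± 0.19, adjusted p = 1.41e-04). At 12 h it held 37.2, 63.5 and 56.2 CPM and at 24 h 41.5, 66.5 and 39.7 CPM, both within the range of controls. From 6 to 12 h its log2FC was -0.92 ± 0.24 (adjusted p = 0.0339, under the fold threshold of 1), and none of the 10 genes was called there by edgeR's quasi-likelihood test or by DESeq2 (1.34% of all genes called by the former, with 3730 at an unadjusted p under 0.05). At 36 h it held 33.0, 45.5 and 24.7 CPM against 66.8, 49.3 and 49.4 CPM in Ctr 36 h, and fell to 0.618 of control (log2FC -0.69 ± 0.24, adjusted p = 0.0345). That value sits close to the threshold. Slc7a11 was not called at 36 h without the factor of unwanted variation, with library size only or with the range of label numbers as a factor. The call was lost without SE 36 h replicate 1, SE 36 h replicate 3 or Ctr 36 h replicate 1 (log2FC -0.94 to -0.49 over 7 omissions) and without the 6 libraries high in sensory ganglion markers (-0.48, adjusted p = 0.114). Its partner Slc3a2, the heavy subunit, rose at 6, 12 and 24 h (log2FC 1.25, 1.17 and 0.94). It belongs to a list of 10 genes of cystine and glutathione metabolism that also holds Slc7a11, Gclm and Gclc, of which 3, 3, 3, 2 and 1 rose and 0, 0, 0, 1 and 0 fell from 6 to 72 h (median log2FC 0.26, 0.25, 0.13, 0.02 and -0.11).

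The subunits of glutamate-cysteine ligase, which makes the dipeptide precursor of glutathione, passed no comparison with control. Gclm, the modifier subunit, was at 66.6 to 81.4 CPM in SE and 54.4 to 73.4 CPM in controls, with log2FC of 0.07 to 0.22 and adjusted p-values from 0.0515 to 0.635. Against the control of the same time, its groups did not overlap at 12 and 36 h, as for 47.7% and 51.9% of all genes. Gclc, the catalytic subunit, was at 51.4 to 88.9 CPM in SE and 58.5 to 103 CPM in controls, with log2FC of -0.38 to 0.07. Its lowest value was at 72 h, with 57.3, 58.2 and 51.4 CPM against 63.6, 103 and 58.5 CPM in Ctr 72 h (log2FC -0.38 ± 0.12, adjusted p = 0.0178, under the fold threshold). Without Ctr 72 h replicate 2, the library with 103 CPM, it was -0.14 ± 0.12 (adjusted p = 0.419). Gpx4, which reduces lipid hydroperoxides in membranes, was at 74.5 to 129 CPM in SE and 89.6 to 139 CPM in controls. Its 95% intervals bounded the change narrowly: log2FC from 6 to 72 h was, in order, 0.18 (-0.01 to 0.37), 0.03 (-0.21 to 0.26), -0.16 (-0.36 to 0.03), -0.07 (-0.30 to 0.17) and -0.15 (-0.39 to 0.08). The pseudogene Gpx4-ps2 held 20 to 221 counts per library, and Gpx4 also overlaps a gene on the opposite strand, so its counts are uncertain.

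The ferritin chains stood highest at 72 h, the light chain having risen from 6 h on. Ftl1, the light chain, which promotes iron core formation, was at 104, 116 and 129 CPM at 6 h, 112, 147 and 177 CPM at 12 h, and 166, 149 and 177 CPM at 24 h. The 36 h libraries held 164, 129.5 and 179 CPM and the 72 h libraries 205, 167 and 238 CPM. All 15 SE libraries lay above all 9 controls (53.7 to 97.5 CPM, median 68.5). The fold change was 1.59 at 6 h (log2FC 0.67 ± 0.15, adjusted p = 0.00153), 2.05 at 12 h (1.04 ± 0.19, adjusted p = 3.10e-04), 2.25 at 24 h (1.17 ± 0.15, adjusted p = 2.98e-06), 2.41 at 36 h (1.27 ± 0.19, adjusted p = 4.62e-05) and 2.41 at 72 h (1.27 ± 0.20, adjusted p = 6.46e-05). The 6 h value stands at the fold threshold: 5 of 12 omissions of a library took it under 0.66, as did 3 other settings, with log2FC from 0.40 to 0.77 in all.

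Fth1, the heavy chain with the ferroxidase site, was the most abundant of the 10. It held 1328, 1839.5 and 1780.1 CPM at 6 h, 1497, 1285 and 2056 CPM at 12 h, and 2347, 1861 and 2329.6 CPM at 24 h. It was at 2030.1, 1633 and 2008 CPM at 36 h and at 2471, 2463 and 3442 CPM at 72 h, against 1180.2 to 1577 CPM in controls. From 24 h on, every SE library was above all controls, whereas at 6 and 12 h the groups overlapped. At 72 h Fth1 rose 1.88-fold (95% interval 1.46 to 2.43; log2FC 0.91 ± 0.18, adjusted p = 6.63e-04). The 24 h value passed on p but not on fold (log2FC 0.62 ± 0.14, adjusted p = 0.00137), and those at 6, 12 and 36 h were 0.21, 0.22 and 0.43 (adjusted p = 0.24, 0.343 and 0.0658). From 36 to 72 h its log2FC was 0.56 ± 0.18 (adjusted p = 0.0471, under the fold threshold of 1).

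Because Ftl1 changed earlier and by more, the ratio of Fth1 to Ftl1 counts shifted. It was 8.72 to 15.9 in the 15 SE libraries and 12.9 to 28.4 in the 9 controls, and 8 of the 9 controls had a ratio of at least 15.8. The ratio is a ratio of counts and is not corrected for length. The copies Fth1-ps and Ftl1-ps1 held at most 30 and 21 counts in any library, and other annotated copies of ferritin were not analysed here. Both Ftl1 and Fth1 overlap a gene on the opposite strand, which counting without strand cannot separate.

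**Figure D4:**
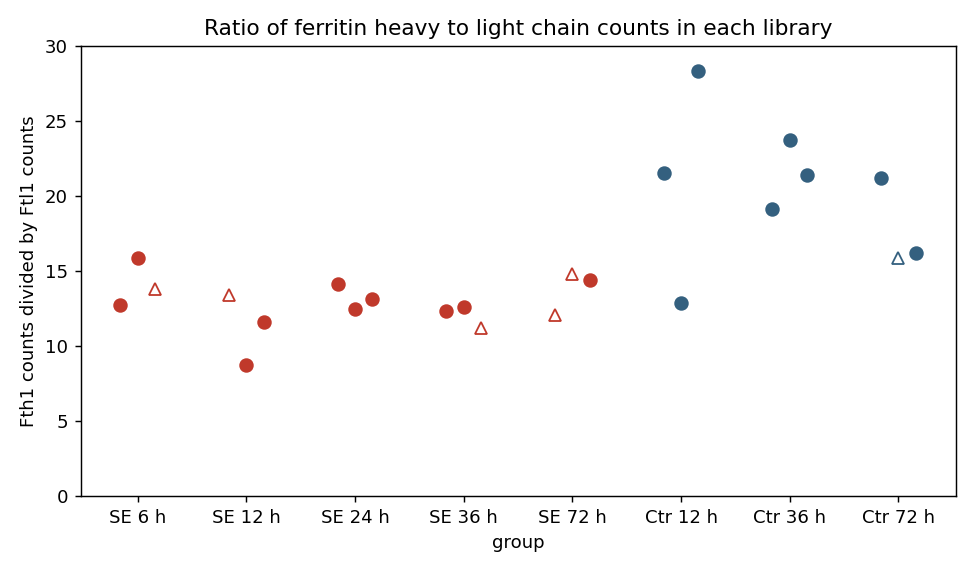
Ratio of Fth1 to Ftl1 counts (vertical axis from 0) in each library by group, SE in red and Ctr in blue, with open triangles for the 6 libraries high in sensory ganglion markers. SE libraries sit between 8.72 and 15.9 and controls between 12.9 and 28.4, with Ctr 12 h replicate 2 the lowest control.

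Markers of other cells moved over the same times. Of 10 microglial markers, 0, 1, 4, 7 and 10 rose in the order of time, and their summed level was 343 to 413, 374 to 534, 679 to 914, 925 to 1049.9 and 2082 to 2915 CPM, against 436 to 544 CPM in controls. In the same order, 5, 2, 1, 1 and 0 of these markers fell. Of 7 macrophage markers, 1, 1, 2, 3 and 4 rose and 0 fell from 6 to 72 h. Their sum at 72 h was 75.6 to 163 CPM against 9.5 to 51.0 CPM in Ctr 72 h. The summed astrocyte markers were at 12870.1 to 14405 CPM at 72 h and 4890.0 to 5692 CPM in Ctr 72 h, and 1, 2, 2, 3 and 3 of 8 rose and 0, 1, 4, 4 and 0 fell from 6 to 72 h. Of 8 neuronal markers, 0, 3, 2, 4 and 3 fell and 0 rose. Of 8 oligodendrocyte markers, 4, 0, 4, 0 and 2 rose and 0, 1, 0, 1 and 0 fell, and of 8 vascular markers 3, 3, 5, 3 and 3 rose and 2, 1, 0, 0 and 0 fell. The part of these cell types in the values of the 10 genes was not tested.

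In the main fit, the size of the SE effect differed between time points for 3 of the 10 genes, for Gclc only marginally. For Hmox1 it was lower at 36 h than at 12 h (difference in log2FC -2.69 ± 0.45, adjusted p = 0.00374; 3.83% of all genes called) and likewise at 72 h (-2.67 ± 0.47, adjusted p = 7.42e-04; 22.2% called). For Srxn1 it was lower at 72 h than at 12 h (-1.93 ± 0.29, adjusted p = 2.12e-04) and than at 36 h (-1.38 ± 0.29, adjusted p = 0.011; 5.35% called), the latter lost with the range of label numbers as a factor (adjusted p = 0.055). For Gclc it was lower at 72 h than at 12 h by a small margin (-0.45 ± 0.16, adjusted p = 0.0492). This did not hold without Ctr 72 h replicate 2 or without 6 other single libraries. The Gclc call was also lost in 8 of 11 other settings, among them no factor of unwanted variation and limma-voom. The corresponding differences for Ftl1 and Txnrd1 did not pass the test (72 h minus 12 h: 0.23 ± 0.27 and -0.33 ± 0.16). For Fth1 it was 0.69 ± 0.25 (adjusted p = 0.0506) and became 0.66 ± 0.20 (adjusted p = 0.0268) without Ctr 72 h replicate 2.

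The controls themselves were near level. None of the 10 genes was called between control groups, by edgeR's quasi-likelihood test, where 0%, 0.931% and 1.97% of all genes were called and 648, 3500 and 3879 genes had an unadjusted p under 0.05 (Ctr 36 h against 12 h, 72 h against 12 h, and 72 h against 36 h). Gpx4 came closest, with a log2FC of 0.43 ± 0.11 between Ctr 72 h and Ctr 36 h (adjusted p = 0.0414, under the fold threshold). Its values were 111, 139 and 119.6 CPM against 89.6, 91.6 and 90.6 CPM. Without Ctr 72 h replicate 2, its log2FC was 0.34 ± 0.12 (adjusted p = 0.203). From 24 to 36 h after SE, 0 of the 10 genes were called (0.529% of all genes called by edgeR, with 3015 at an unadjusted p under 0.05), and DESeq2 also called 0 in each of these 4 comparisons.

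NRF2 and a minority of its listed regulators were altered at the mRNA level. Of a list of 10 genes, Nfe2l2 and 9 regulators, 4 rose at 6, 12 and 24 h and 3 at 36 and 72 h. None fell at any time (median log2FC 0.30, 0.38, 0.44, 0.19 and 0.11). Beside this and the other gene lists, the shares of all genes called higher were 15.8%, 13.9%, 14.9%, 12.7% and 15.2% from 6 to 72 h. Those called lower were 6.21%, 11.4%, 9.21%, 8.91% and 4.21%. Nfe2l2, which encodes NRF2, was at 38.5 to 45.4, 34.9 to 47.8, 35.6 to 42.4, 41.0 to 48.5 and 66.8 to 85.3 CPM in the 5 SE groups in order, against 13.9 to 39.6 CPM in controls, of which the highest was in Ctr 72 h. It rose at every time, with log2FC of 1.13 ± 0.12, 1.25 ± 0.15, 1.03 ± 0.12, 1.29 ± 0.15 and 1.75 ± 0.16. Bach1, the repressor, rose as well (log2FC 1.74, 1.75, 1.89, 1.4 and 1.22). Among small MAF genes, Maff rose most at 6 h (log2FC 4.4 ± 0.28) and was at 1.34 ± 0.44 by 72 h (adjusted p = 0.0291), Mafk rose up to 24 h (1.47, 1.35 and 1.15), and Mafg stayed under the fold threshold (0.04 to 0.65). Keap1, the inhibitor, had log2FC of -0.35, -0.48 and -0.26 at 6, 12 and 24 h (adjusted p = 0.0026, 9.09e-04 and 0.017), also under that threshold. Cul3, Rbx1, Sqstm1 and Nfe2l1 were not called at any time. Protein stability of NRF2, its main mode of control, is not measured by these counts.

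**Figure D5:**
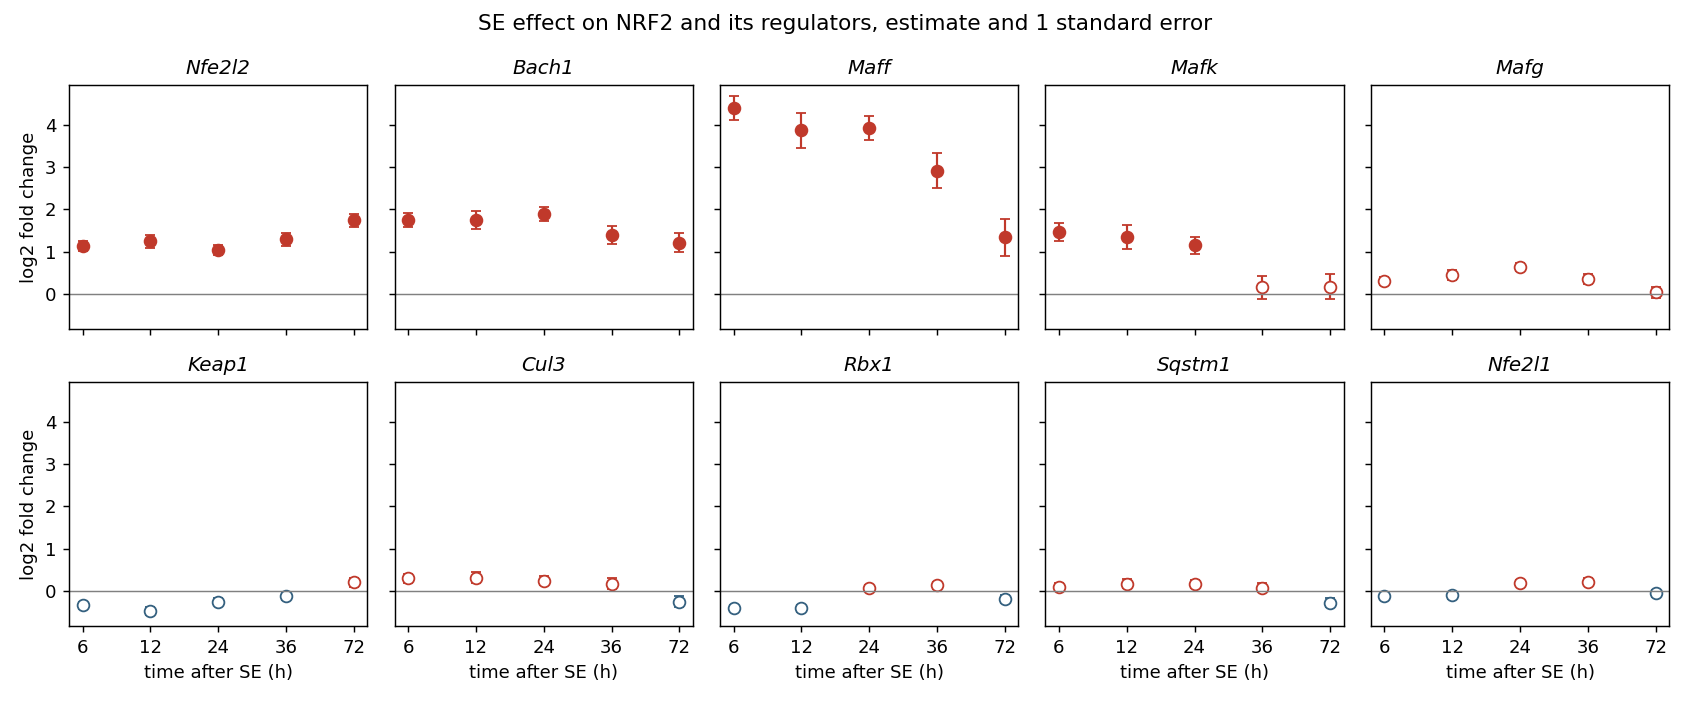
log2 fold change after SE (vertical axis, error bars are 1 standard error) of Nfe2l2 and 9 of its regulators at the 5 time points, which are evenly spaced on the horizontal axis. Filled points passed the test. Nfe2l2, Bach1 and Maff are filled at every time, and Keap1 at none, with values from -0.48 to 0.20.

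Other targets of NRF2 did not move as a block. Of 18 listed, 2, 2, 5, 7 and 4 rose and 1, 3, 5, 2 and 1 fell from 6 to 72 h, with a median log2FC of -0.09, 0.09, 0.08, 0.13 and 0.36. G6pdx, the entry enzyme of the pentose phosphate pathway, rose at 24, 36 and 72 h (log2FC 0.89, 0.86 and 1.51). Txn1, thioredoxin itself, rose at 12, 24 and 36 h (0.66, 1.22 and 1.48), and Prdx1, a peroxiredoxin, at 36 and 72 h (0.71 and 1.02). Blvrb, which encodes biliverdin reductase B, rose at 6 to 36 h (1.70, 2.16, 0.72 and 1.06). Among those that fell, Gsta4, a glutathione transferase, did so at 12, 24, 36 and 72 h (-1.36, -2.00, -2.03 and -0.85), Gstm1, another, at 24 and 36 h (-0.90 and -1.36), and Ephx1, an epoxide hydrolase, at 6, 12 and 24 h (-1.04, -1.20 and -1.0).

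In the iron and heme list, 5, 5, 6, 6 and 8 of 22 tested genes rose and 1, 1, 1, 2 and 0 fell in the same order of time, with a median log2FC of 0.07, 0.14, 0.29, 0.21 and 0.28. Ferroportin (Slc40a1), the iron exporter and, like the ferritins, a match to the iron-responsive element, fell at 6, 12, 24 and 36 h (log2FC -1.92, -1.83, -2.22 and -0.92) and was at 0.39 ± 0.28 at 72 h. The importer Slc39a14 rose at all 5 times (1.87, 1.79, 1.90, 1.09 and 1.1), as did Trf, transferrin (1.00, 1.13, 2.58, 1.88 and 2.47), Cp, the ferroxidase ceruloplasmin (1.29, 1.78, 1.28, 1.88 and 1.46), and Lcn2, a carrier of iron chelates (4.42, 7.32, 5.26, 6.47 and 3.49). Steap3 rose at 36 and 72 h (1.39 and 1.46) and Hpx, the heme scavenger hemopexin, at 6, 12 and 24 h (2.65, 3.50 and 1.62) from group means of 0.266 to 0.450 CPM in controls. Tfrc, the transferrin receptor, Ncoa4, the ferritinophagy receptor, and Hmox2, the constitutive heme oxygenase, were not called (log2FC -0.38 to 0.35, -0.06 to 0.20 and -0.36 to -0.03).

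Genes of lipid peroxidation and of the ATF4 pathway, which also drives Slc7a11, were set beside the 10. Of 9 lipid peroxidation genes tested, 4, 2, 5, 4 and 4 rose and 1, 0, 1, 0 and 0 fell at the 5 times (median log2FC 0.31, 0.45, 1.00, 0.42 and 0.77). Acsl4, which loads membranes with oxidisable fatty acids, rose at 6, 12 and 24 h (log2FC 1.13, 1.36 and 1.00) while Gpx4 was not called. Ptgs2, often read as a marker of ferroptosis and also an activity-regulated gene, rose up to 36 h (2.65, 3.69, 5.11 and 4.36). Alox5, a lipoxygenase, rose from 24 h (1.36, 2.12 and 4.47). Of 11 ATF4 pathway genes, 6, 6, 5, 3 and 1 rose and 0, 2, 1, 0 and 0 fell (median 0.99, 0.70, 0.53, 0.42 and -0.18). Atf4 rose at 6, 12, 24 and 36 h (1.39, 1.80, 1.44 and 1.07), and Sesn2 and Chac1, its targets, rose at 6, 12 and 24 h (1.87, 2.08 and 1.09, and 1.96, 2.02 and 1.75). Gpx1, the cytosolic glutathione peroxidase, rose from 12 h (0.68, 0.95, 1.35 and 1.27).

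Per kilobase of exon, the 10 genes spanned a wide range in controls. Fth1 was at 404 ± 34.6 CPM per kb (SD, n = 9), followed by Gpx4 at 60.2 ± 9.65 and Ftl1 at 55.0 ± 10.9, which did not differ beyond their spread. Gclc (11.6 ± 2.07), Srxn1 (9.42 ± 2.60), Txnrd1 (9.24 ± 1.66) and Gclm (8.28 ± 0.70) lay close together within their spread. Hmox1 (3.09 ± 0.56) and Slc7a11 (3.03 ± 0.74) were lower, and Nqo1 lowest (1.56 ± 0.62). After SE, Hmox1 reached 122 CPM per kb in SE 12 h replicate 3, above every control value of Gclc, Srxn1, Txnrd1 and Gclm. These levels use the exon lengths of GENCODE M39, and a transcript that uses fewer exons would be understated.

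Across the 24 libraries, Hmox1, Srxn1 and Txnrd1 varied together (Pearson r of log2 CPM 0.92 for Hmox1 and Srxn1, 0.88 for Hmox1 and Txnrd1, 0.91 for Srxn1 and Txnrd1), as did Ftl1 and Fth1 (0.78). These correlations follow the group differences, which the libraries share, and are given as a description. Among 13750 genes, the closest patterns to Srxn1 were Nedd9 (0.98), Eif5a (0.97) and Scg2 (0.96), and those to Txnrd1 were Amotl1 (0.97), Ccl2 (0.96) and Plaur (0.96). Hmox1 was closest to Hsd17b12 (0.95), Myo9b (0.94) and H3f3b (0.93). Renbp and Ifitm3 (both 0.95) were among the closest to Ftl1, and Fth1 was closest to Abca1 (0.91), Lamp1 and Tyrobp (both 0.90). Nqo1 was closest to Cage1 (0.88), Selenop (0.87) and Sdr42e1 (0.87), and Slc7a11 to Cit (0.83), Rnd1 and Rsad1 (both 0.82). For Gpx4 they were its own pseudogene Gpx4-ps2 (0.82), Fbxo2 (0.80) and Sod1 (0.78), for Gclm Pias2, Sec24d and Eaf1 (all 0.86), and for Gclc Thoc3 (0.83), Gopc (0.80) and Xxylt1 (0.79).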

How the data were processed

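CA1 RNA was sequenced in 24 libraries (8 groups of 3, set from the sample labels). The authors trimmed reads with Trim Galore 0.6.6, aligned them with STAR 2.7.8a to GRCm39 with GENCODE M26, used SAMtools 1.10, counted reads per gene with htseq-count (HTSeq 0.13.5) without regard to strand, and deposited whole-number counts with no normalization. Reads that fit near-identical copies or overlapping genes are therefore uncertain. Among the 10, exons of Gpx4, Srxn1, Gclm, Ftl1 and Fth1 overlap other annotated genes, those of Gclm over the most bases (1491). Symbols came from GENCODE M39 on the same assembly, where 18552 of 18647 gene IDs matched and 95 did not. The 10 genes, the gene lists and the tests were chosen with earlier results of these data known.

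Counts were normalised by TMM and filtered with filterByExpr over the 8 groups (18153 genes). They were fitted in edgeR 4.0.16 (R 4.3.3) on all 24 libraries, with the 8 groups and 1 RUVr factor of unwanted variation in the model, and edgeR's quasi-likelihood test gave p-values that were adjusted by Benjamini-Hochberg across all genes. Calls required both an adjusted p up to 0.05 and a log2FC of 0.66 or more in size (1 between SE time points, none for differences between effects). CPM are TMM-normalised, and correlations used log2 CPM with a prior count of 2 for genes with a mean of at least 1. Named genes were the 10, list genes called at 12, 36 or 72 h or regulating NRF2, the 3 closest patterns (1 is not reported here), and annotated copies; Hmox2, Tfrc, Ncoa4, Cul3, Rbx1, Sqstm1 and Nfe2l1 were also named. Sequences were read from GRCm39. On simulated data for SE 12 h against Ctr 12 h with 200 of 17013 genes changed by a log2FC of 1.5, 139 (69.5%) were recovered and 6 others were called. Totals of 2663936 to 30133731 counts (median 13521590) limit the precision, least for Fth1 and most for Nqo1.

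Alternatives were no RUVr factor, DESeq2 1.42.0, limma-voom (limma 3.58.1), DESeq2 size factors, library size only, other filters and thresholds, the compared groups only, label-number range or replicate number as a factor, and omission of each library. Omission of the 6 libraries with over 100 CPM of summed sensory ganglion markers was added after seeing the data.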

Additional observations from a re-analysis of the deposited data

Results flagged for a closer look

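The SE effect, taken as the log2FC against the control of the same time, differed between time points for 3 of the 10 genes by a test of the difference itself in edgeR. For Hmox1 the effect at 36 h minus that at 12 h was -2.69 ± 0.45 (s.e., adjusted p = 0.00374), and the effect at 72 h minus that at 12 h was -2.67 ± 0.47 (adjusted p = 7.42e-04). For Srxn1 the effect at 72 h was lower than at 12 h (-1.93 ± 0.29, adjusted p = 2.12e-04) and than at 36 h (-1.38 ± 0.29, adjusted p = 0.011). For Gclc the difference between 72 h and 12 h was -0.45 ± 0.16 (adjusted p = 0.0492), and without Ctr 72 h replicate 2 it was -0.20 (adjusted p = 0.403). The Gclc call was lost in 8 of 11 other settings, so it depends on the processing.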

How the results depend on the processing

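The number of the 10 genes called moved by over 1.5 times in few settings. With a log2FC of at least 1 it was 3 at 6 h and 3 at 36 h, and with 0.66 between SE time points it was 1 for 12 h against 6 h and 2 for 72 h against 36 h. Without the RUVr factor it was 0 for 72 h against 36 h (3.01% of all genes called), with the compared groups only 0 for 24 h against 12 h (0.711%), and with the range of label numbers as a factor 0 for the effect at 72 h minus that at 36 h (2.43%). Without the 6 libraries high in sensory ganglion markers, an alternative chosen after seeing the data, it was 5 at 72 h (12.3% of all genes) and 2 for 72 h against 36 h (2.68%). Leaving out single libraries gave 3 to 5 at 72 h (5 without Ctr 72 h replicate 2, with 16.8% of all genes), 0 to 1 for 12 h against 6 h (1 without SE 12 h replicate 2) and 0 to 2 for 72 h against 36 h (2 without SE 36 h replicate 3). The cause was not tested.

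Signs changed only for log2FC that did not pass the test. Over omissions, log2FC ranged at 12 h from -0.044 to 0.41 for Slc7a11, -0.020 to 0.090 for Gpx4 and -0.076 to 0.16 for Gclc, and at 24 h from -0.19 to 0.23 for Slc7a11 and -0.033 to 0.10 for Gclc. It ranged at 36 h from -0.15 to 0.030 for Gpx4, and at 72 h from -0.16 to 0.49 for Nqo1 and -0.032 to 0.15 for Gclm. Gpx4 was at -0.084 at 12 h with the label range, at 0.056 at 36 h with library size only and at 0.014 at 72 h without the 6 libraries, and without the RUVr factor Gclc was at -0.0046 at 24 h and Nqo1 at -0.056 at 72 h. Of single-gene log2FC under an alternative, 1143 kept direction and side of the threshold, 37 lost and 13 gained a call, and 20 changed sign.

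Replicate numbers were not used to pair the samples in the main fit. Of 9 same-numbered pairs, 4 had a correlation of deviations above 0.1 (range -0.20 to 0.18). Among the SE libraries of these pairs, 5 correlated best with the control of their own number. With 3 libraries per group, this check cannot decide whether samples were paired. With the replicate block, 5, 4, 5, 5 and 3 of the 10 genes were called from 6 to 72 h, against 21.8%, 25.1%, 23.9%, 21.6% and 19.3% of all genes, and the only call lost was that of Gclc, SE effect at 72 h minus at 12 h (log2FC difference -0.45, adjusted p = 0.0616). Depth limits Nqo1 most, with 3 to 120 counts per library.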
